A study of Mus musculus with 6 samples.

Results

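The T cell receptor beta segments were the variable (Trbv), diversity (Trbd), joining (Trbj) and constant (Trbc) rows of a deposited gene expression table of mouse invariant natural killer T (iNKT) cells. They were chosen by name, as every row starting with Trbv, Trbd, Trbj or Trbc, which gave 53 members among 48709 genes. Of these, 35 were Trbv, 2 Trbd, 14 Trbj and 2 Trbc, and all 53 lay on chromosome 6. The labels describe iNKT cells sorted from the spleen and taken in the resting state, from 3 Gpx4 cKO samples, in which Gpx4 was deleted conditionally, and 3 wild type (WT) samples. Gpx4 encodes glutathione peroxidase 4, which reduces lipid hydroperoxides. The labels name no promoter behind the conditional deletion, no strain, age or number of animals per sample, and they do not tell whether each sample was a separate animal.

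The table names its 6 libraries by numbers from 18 to 23 that the labels do not use. As 0 libraries could be matched to a genotype, Gpx4 cKO and WT were not compared, and each library is given by its own number. The question these data can answer is therefore which beta segments held the reads of the sorted cells. They can also show how closely the libraries resembled each other, and where the libraries differed beyond counting error. A share of reads in bulk RNA is not a share of cells.

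The beta chain is one of the chains of the alpha beta T cell receptor. In a developing T cell the RAG recombinase joins a D segment to a J segment and then a V segment to that pair, and splicing joins the rearranged exon to one of the constant genes, Trbc1 or Trbc2. Mouse iNKT cells carry an almost invariant alpha chain, encoded by Trav11 and Traj18, that recognises lipids on CD1d, and they are known for pairing it with a narrow set of beta chains from the older families V8, V7 and V2. In the RefSeq gene table for GRCm38.p6 these older names belong to the 3 Trbv13 segments (the Tcrb-V8 genes), to Trbv29 (Tcrb-V7) and to Trbv1 (Tcrb-V2).

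The variable segments that carried most reads are shown by the last 150 bases of their coding sequence, the end that meets the D and J segments, read from the GENCODE M21 annotation on GRCm38. In Trbv29 and Trbv1 the capitals mark the last TGT or TGC codon after TTC or TAC, the pattern of the conserved cysteine that opens the third complementarity-determining region. In Trbv13-1 and Trbv13-3 the capitals mark bases that differ from Trbv13-2, 24 and 16 of the 150 bases, since reads can be told apart within this family only at such bases. The stretches lie on the plus strand at chr6:41271732-41271881 for Trbv29, chr6:40891736-40891885 for Trbv1, chr6:41116319-41116468 for Trbv13-1, chr6:41121683-41121832 for Trbv13-2 and chr6:41130436-41130585 for Trbv13-3.
Trbv29: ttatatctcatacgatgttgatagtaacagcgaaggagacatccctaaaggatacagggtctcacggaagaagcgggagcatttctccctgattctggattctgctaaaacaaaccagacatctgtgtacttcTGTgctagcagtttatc
Trbv1: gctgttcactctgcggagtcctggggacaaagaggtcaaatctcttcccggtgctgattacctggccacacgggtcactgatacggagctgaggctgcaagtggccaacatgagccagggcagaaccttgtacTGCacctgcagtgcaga
Trbv13-1: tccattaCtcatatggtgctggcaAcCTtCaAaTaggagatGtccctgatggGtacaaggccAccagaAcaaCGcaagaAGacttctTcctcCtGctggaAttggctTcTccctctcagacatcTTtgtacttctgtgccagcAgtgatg
Trbv13-2: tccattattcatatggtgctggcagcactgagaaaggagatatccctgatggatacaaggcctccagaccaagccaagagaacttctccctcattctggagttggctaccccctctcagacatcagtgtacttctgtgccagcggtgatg
Trbv13-3: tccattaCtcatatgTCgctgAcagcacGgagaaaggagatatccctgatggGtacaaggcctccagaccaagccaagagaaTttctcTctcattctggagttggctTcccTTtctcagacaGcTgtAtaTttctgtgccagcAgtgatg

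The short segments are shown because their length bears on how many reads they could hold. Trbd1 (chr6:41533201-41533212) and Trbd2 (chr6:41542163-41542176) are given whole, and so are Trbj1-4 (chr6:41534811-41534861) and Trbj2-4 (chr6:41543362-41543410), with the motif TTTGG or TTCGG in capitals; it encodes the phenylalanine and part of the glycine that start the conserved J motif. On the plus strand 11 of the 14 Trbj segments hold it.
Trbd1: gggacagggggc
Trbd2: gggactgggggggc
Trbj1-4: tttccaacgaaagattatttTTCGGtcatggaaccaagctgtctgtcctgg
Trbj2-4: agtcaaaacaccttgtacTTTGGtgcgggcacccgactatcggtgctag

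Depth ranged from 903524 exon reads in library 21 to 10122187 in library 19, and libraries 18, 20, 22 and 23 had 8020374, 5432206, 5406110 and 1916746. Levels are given as CPM, counts scaled to 1000000 reads on library sizes scaled with edgeR's TMM method, and as deposited RPKM where genes of different length are set side by side. The 5 listed genes of the receptor complex (Cd3d, Cd3e, Cd3g, Cd247, Trac) summed to between 1974 and 2366 CPM, Trav11 lay between 49.5 and 81.6 CPM, and Zbtb16, the transcription factor PLZF of iNKT cells, between 245 and 357 CPM. Traj18, the joining segment of the invariant alpha chain, had 21 reads in all and none in libraries 21 and 23. Of the other cell types, Cd8a had 1 read in all and Cd8b1 had 44, at most 2.77 CPM, Trdc of gamma delta T cells lay between 2.89 and 7.25 CPM, and the 2 myeloid genes matched summed to at most 4.22 CPM. Of the B cell genes, Igkc, an antibody light chain constant gene, was lowest in library 18 (605 CPM) and highest in library 23 (4505 CPM), and Cd79a, Cd79b and Ms4a1 lay at or below 12.7, 18.3 and 20.4 CPM. Of the genes listed for conventional naive T cells, Lef1 lay between 307 and 436 CPM and Ccr7 between 9.51 and 22.4 CPM. The sum of the 3 erythroid genes was lowest in library 18 (3.25 CPM) and highest in library 23 (250 CPM). Gpx4 itself lay at 30.1, 3.20, 31.3, 14.5, 29.0 and 11.1 CPM in libraries 18 to 23, on 12 reads in library 21. These levels were not used to assign a genotype.

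Across the locus, 26 of the 53 members had at least 1 exon read in a library. These were 23 Trbv segments, both Trbc genes and 1 Trbj segment. The Trbv rows held 9355 exon reads over the 6 libraries, the Trbc rows 18593, the Trbj rows 3 and the Trbd rows 0. Trbv reads numbered 2447, 3068, 1552, 196, 1615 and 477 in libraries 18 to 23. The share of a segment is its exon reads over all exon reads of its class in the same library, with a Wilson 95% interval that covers counting error only.

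Trbv29 and Trbv1 took most variable reads in every library, and with the 3 Trbv13 segments they made up between 82.7% and 86.6% of Trbv reads. Trbv29 (exon length 353 bases) had 943, 1197, 584, 74, 541 and 179 exon reads in libraries 18 to 23. Its share was 38.5%, 39.0%, 37.6%, 37.8%, 33.5% and 37.5%, in the same order. The share in library 22, with an interval of 31.2% to 35.8%, was the lowest, and the intervals of libraries 18 (36.6% to 40.5%) and 19 (37.3% to 40.8%) lay above it. RefSeq lists Trbv29 as a V segment pseudogene, whereas the deposited table lists it as a functional V gene.

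Trbv1 was second in all 6 libraries and varied more than Trbv29. It had 741, 991, 400, 41, 523 and 150 exon reads in libraries 18 to 23, which gave shares of 30.3%, 32.3%, 25.8%, 20.9%, 32.4% and 31.4%. Libraries 20 (interval 23.7% to 28.0%) and 21 (15.8% to 27.1%) were low, and their intervals lay below those of the other 4 libraries except that of library 23, which begins at 27.4% and so overlaps that of library 20. Library 21 rests on 196 Trbv reads. The number of Trbv29 reads per Trbv1 read was 1.27, 1.21, 1.46, 1.80, 1.03 and 1.19 in libraries 18 to 23. The exact interval of this ratio included 1 in libraries 22 (0.916 to 1.17) and 23 (0.955 to 1.49), so the order of the top pair was not resolved there.

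**Figure D1:**
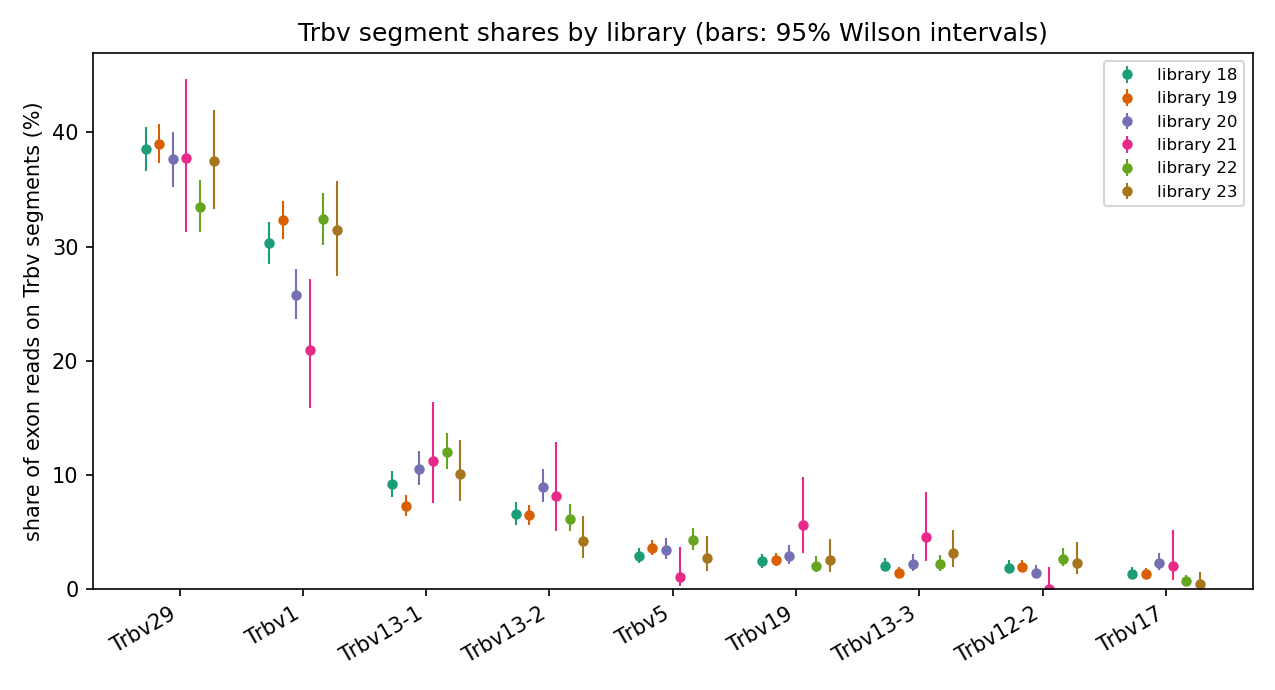
Share of Trbv exon reads (y axis, percent) for the 9 Trbv segments with a median share of at least 1% (x axis), 1 point per library with its Wilson 95% interval. Trbv29 lies between 33.5% and 39.0% and Trbv1 between 20.9% and 32.4%, and every other segment is at 12.0% or below.

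The Trbv13 family, the segments of the older V8 family, formed the next group. Its 3 members together held 17.7%, 15.2%, 21.6%, 24.0%, 20.3% and 17.4% of Trbv reads in libraries 18 to 23. Library 19 was lowest, with an interval of 13.9% to 16.5%, and the intervals of libraries 20 (19.7% to 23.8%), 21 (18.5% to 30.4%) and 22 (18.4% to 22.3%) lay wholly above it.

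Within the family, Trbv13-1 (Tcrb-V8.3) was ahead of Trbv13-2 (Tcrb-V8.2) in all 6 libraries, and Trbv13-3 (Tcrb-V8.1) came last in all 6. Trbv13-1 had 224, 224, 163, 22, 194 and 48 exon reads in libraries 18 to 23, or 9.15%, 7.30%, 10.5%, 11.2%, 12.0% and 10.1% of Trbv reads. Trbv13-2 had 160, 198, 139, 16, 99 and 20 reads, or 6.54%, 6.45%, 8.96%, 8.16%, 6.13% and 4.19%. In libraries 19, 20 and 21 the intervals of these 2 segments overlapped, so their order was not resolved in those libraries, and the intervals of Trbv13-2 and Trbv13-3 overlapped in libraries 21 and 23. Trbv13-3 had 50, 43, 34, 9, 35 and 15 reads, or between 1.40% in library 19 and 4.59% in library 21. The 2 leading members had their extremes in different libraries. Trbv13-1 was highest in library 22 and lowest in library 19, and Trbv13-2 was highest in library 20 and lowest in library 23. Whether their shares moved together was not tested.

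The Trbv13 segments are close in sequence, so their split could depend on how reads were placed. Aligned over the coding sequence, Trbv13-2 and Trbv13-3 were identical at 90.6% of bases with a longest shared run of 50 bases, Trbv13-1 and Trbv13-2 at 87.9% with a run of 34, and Trbv13-1 and Trbv13-3 at 85.3% with a run of 34. Over the 231 pairs of functional Trbv segments the median identity was 55.2% and the median longest run 11 bases. All exon reads of the 3 Trbv13 segments were nevertheless counted as unique in the deposited table. Of the 26 members with reads, 22 had only unique exon reads. The exceptions were Trbv4 with 74.4% unique, Trbv5 with 79.4%, Trbc1 with 93.3% and Trbc2 with 92.3%. Trbv4 and Trbv5 were identical at 61.9% of coding bases, with a longest shared run of 12. Longer runs, of 17 bases, were shared by Trbv5 with Trbv2 and by Trbv4 with Trbv14. Pseudogenes were not aligned, and the source of the reads that were not unique was not tested.

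The other 4 segments with a median share of at least 1% were Trbv5, Trbv19, Trbv12-2 and Trbv17, the older V1, V6, V5.1 and V9. Trbv5 had 70, 109, 53, 2, 69 and 13 exon reads in libraries 18 to 23 and a median share of 3.14%, with 4.27% in library 22 and 1.02% (interval 0.280% to 3.64%) in library 21 at the ends of its range. Trbv19 had 59, 78, 45, 11, 33 and 12 reads and a median share of 2.53%, with 5.61% (interval 3.16% to 9.77%) in library 21, above the 2.04% to 2.90% of the other 5 libraries. That interval in library 21 overlapped those of libraries 20 and 23.

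Trbv12-2 had 46, 60, 22, 0, 43 and 11 reads and a median share of 1.92%. Its 0 of 196 Trbv reads in library 21 allows a share of up to 1.53% at the limit of 3 reads, or up to 1.92% by the Wilson interval. The 1.42% found in library 20 lies under both limits, and the 1.88% of library 18 under the Wilson limit. Trbv17 had 33, 41, 35, 4, 11 and 2 reads and a median share of 1.34%. It reached 2.26% (interval 1.63% to 3.12%) in library 20, against 0.681% (0.381% to 1.22%) in library 22 and 0.419% (0.115% to 1.52%) in library 23, so libraries 22 and 23 lay below library 20 by more than counting error.

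The remaining 14 Trbv segments with reads each had a median share under 1%, and together they held between 4.14% of Trbv reads in library 19 and 8.67% in library 21. Without library 21 the highest value was 5.66%. Just inside the limit of 1% was Trbv17 at a median of 1.34%, and just outside it were Trbv3 at 0.827% and Trbv16 at 0.802%. Trbv3 had 83 reads over all libraries, Trbv16 had 63, Trbv20 had 62, Trbv2 had 47, Trbv4 had 39 and Trbv31 had 35. Trbv12-1 had 26, Trbv15 had 24, Trbv24 had 15, Trbv26 had 11, Trbv23 had 9, Trbv14 and Trbv21 had 8 each, and Trbv30 had 6. Trbv26 is the older V3.1: 5 of its 11 reads came from library 21, the shallowest.

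Every one of the 22 Trbv segments that the table annotates as functional had at least 1 read. Of its 13 Trbv pseudogenes only Trbv24 had reads, 15 in all, and RefSeq lists Trbv24 as an ordinary V segment. The 12 Trbv segments with no exon read in any library were Trbv6, Trbv7, Trbv8, Trbv9, Trbv10, Trbv11, Trbv12-3, Trbv18, Trbv22, Trbv25, Trbv27 and Trbv28, all pseudogenes. For 11 of the 13 pseudogenes the table gives an exon length of 0, so no exon read could have been counted there. The number of Trbv segments with reads followed the number of Trbv reads, being 22, 23, 20, 13, 21 and 17 in libraries 18 to 23. 11 segments had reads in every library.

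Trbv1 and Trbv29 lay far apart on the chromosome, with the Trbv13 segments close to each other between them. Measured from start to start, Trbv1 lies 642 kb before Trbd1 at the far end of the locus, Trbv5 471 kb, Trbv13-1 417 kb, Trbv13-2 412 kb, Trbv13-3 403 kb and Trbv29 262 kb before it. Of the Trbv29 neighbours, Trbv30 had 6 reads in all, and Trbv28, a pseudogene with an exon length of 0, could hold no exon read. Trbv31, the 1 member on the minus strand, lies 24.5 kb beyond Trbd1 and past both constant genes, and its median share was 0.433%.

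**Figure D2:**
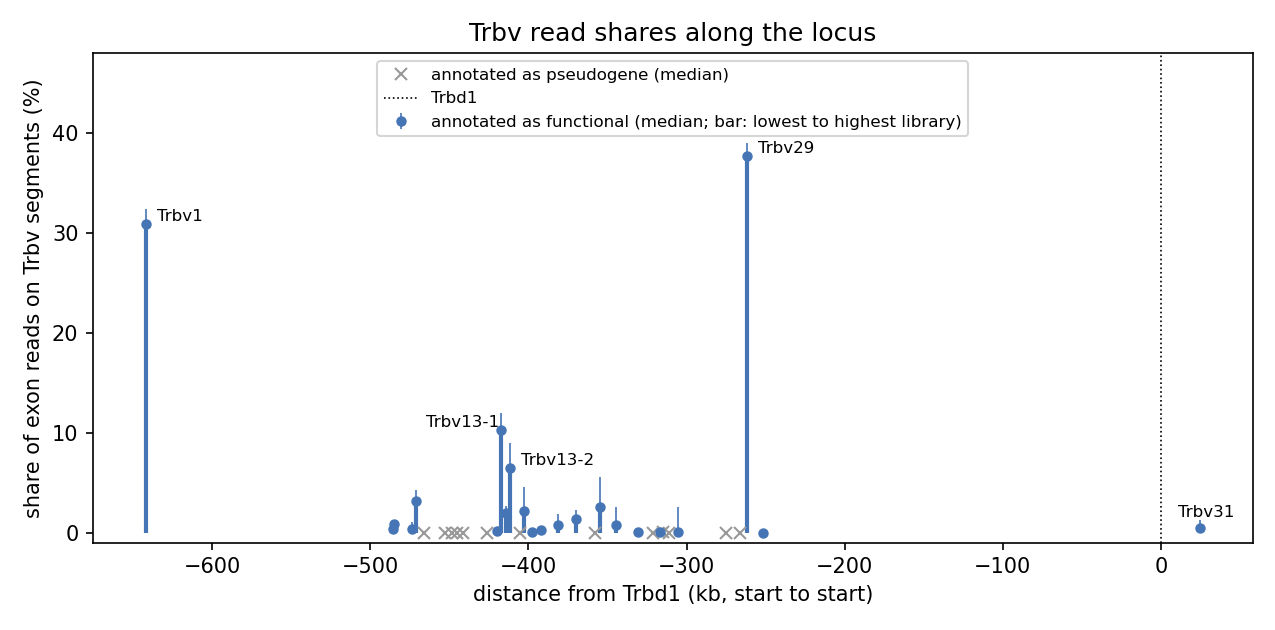
Median share of Trbv exon reads over 6 libraries (y axis, percent) against the distance from Trbd1 (x axis, kb), with thin bars from the lowest to the highest library and crosses for pseudogenes. The 2 tallest lines are Trbv1, 642 kb before Trbd1, and Trbv29, 262 kb before it; the Trbv13 segments stand between them.

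The diversity and joining segments were almost without reads. Trbd1 and Trbd2, 12 and 14 bases long, had 0 exon reads in every library. Of the 14 Trbj segments, 46 to 53 bases long except for the pseudogene Trbj2-6 with an exon length of 0, only Trbj2-4 had exon reads, 3 of them, all in library 19. The share of each J segment in the reads of its class therefore could not be described, since the class held 3 reads in all. The Trbj segments without an exon read were Trbj1-1, Trbj1-2, Trbj1-3, Trbj1-4, Trbj1-5, Trbj1-6, Trbj1-7, Trbj2-1, Trbj2-2, Trbj2-3, Trbj2-5, Trbj2-6 and Trbj2-7. For Trbj1-4 the table records gene reads in all 6 libraries, with 100% of them outside its exon. Taking 3 reads as the limit that a count of 0 allows, the limit was 0.282 CPM in library 19 and 3.62 CPM in library 21; the exact Poisson interval gives 0.347 and 4.45 CPM.

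Trbc1 carried about 3 reads for each read of Trbc2. Trbc1 (chr6:41538218-41539881, exon length 749 bases) had 3229, 4620, 2349, 372, 2309 and 778 exon reads in libraries 18 to 23. Trbc2 (chr6:41546730-41548352, exon length 692 bases) had 1443, 1465, 800, 112, 857 and 259. The Trbc1 share of Trbc reads was 69.1%, 75.9%, 74.6%, 76.9%, 72.9% and 75.0%. Library 18 was the lowest, with an interval of 67.8% to 70.4%, and the interval of no other library reached down to it, the nearest being library 22 with 71.4% to 74.5%. The ratio of Trbc1 to Trbc2 reads was 2.24 in library 18 (exact interval 2.10 to 2.38) and 2.69 to 3.32 in the other 5 libraries.

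The lower ratio in library 18 came with both a lower Trbc1 level, 389 CPM against 410 to 449 CPM elsewhere, and a higher Trbc2 level, 174 CPM against 135 to 158 CPM. Library 18 also had the highest Zbtb16 level, 357 CPM against 245 to 282 CPM, the highest level of Lef1, 436 CPM against 307 to 358 CPM, and the lowest level of Igkc, 605 CPM against 1735 to 4505 CPM. The B cell genes Cd79a, Cd79b and Ms4a1 were not lowest in library 18, where they lay at 5.66, 8.55 and 10.1 CPM. The part of these levels in the result was not tested. In these bulk samples, fewer cells of a type and less RNA per cell cannot be told apart.

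The split between the constant genes could also depend on read placement. Their coding sequences were identical at 495 of 518 bases (95.6%), with a longest shared run of 259 bases. Unique exon reads made up between 92.1% and 94.9% of Trbc1 exon reads and between 90.6% and 94.6% of Trbc2 exon reads across libraries, and counted on unique reads alone the median Trbc1 share was 75.2%, against 74.8% on all exon reads.

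Variable and constant genes were at similar levels per base. The summed RPKM of the Trbv segments was 372, 385, 311, 275, 387 and 303 in libraries 18 to 23. The summed RPKM of the Trbc genes was 366, 394, 323, 347, 392 and 340. The Trbv sum was thus between 0.794 and 1.01 times the Trbc sum, with library 21 lowest, and between 0.891 and 1.01 times without it. In reads, Trbv segments took 34.4%, 33.5%, 33.0%, 28.8%, 33.8% and 31.5% of Trbv plus Trbc exon reads. The interval of library 21, 25.5% to 32.3%, lay below those of libraries 18, 19 and 22 and overlapped those of libraries 20 and 23. For the alpha chain, Trav reads per 100 Trac reads were 16.8 in library 21 and 17.2 in library 23, against 20.4 to 23.9 in the other 4. As a share of Trav plus Trac reads, the interval of library 21 (11.3% to 18.0%) overlapped those of all other libraries, and that of library 23 (12.5% to 17.2%) overlapped all but that of library 20 (17.9% to 20.7%). Libraries 21 and 23 were also the shallowest, and the part of depth in this was not tested.

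**Figure D3:**
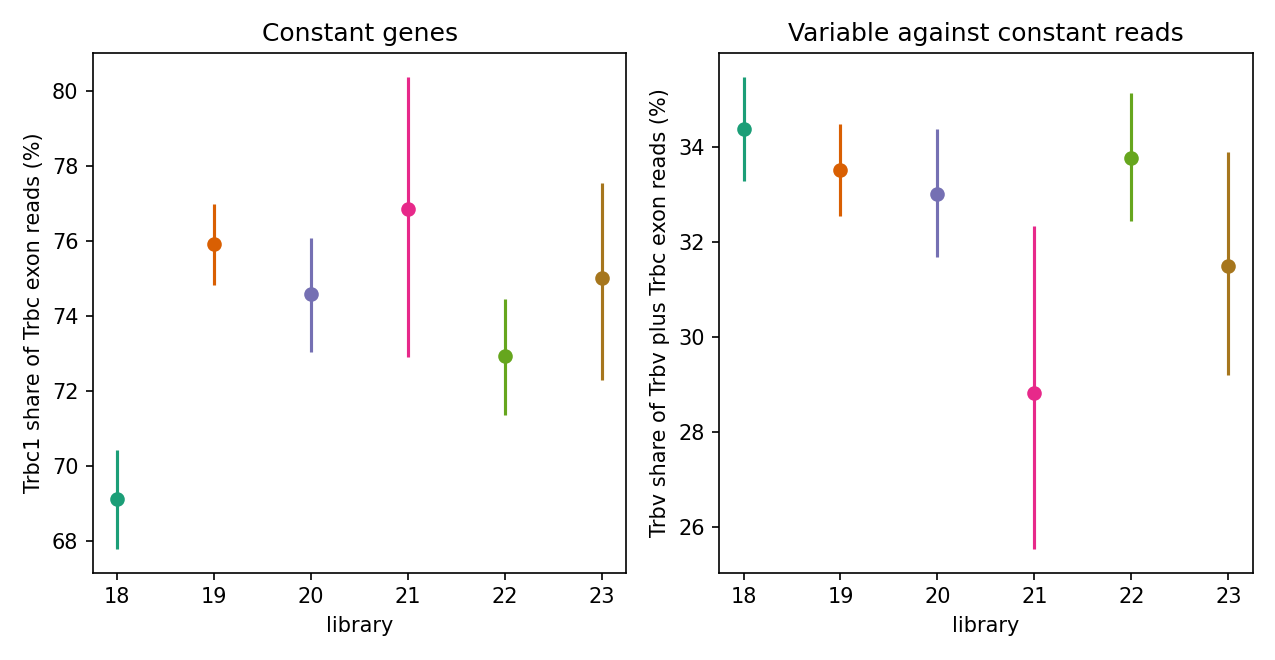
Left, the Trbc1 share of Trbc exon reads, and right, the Trbv share of Trbv plus Trbc exon reads (y axes, percent, not starting at 0), for each library (x axis) with Wilson 95% intervals. Library 18 stands below the others on the left at 69.1%, and library 21 is lowest on the right at 28.8%.

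By single gene, Trbc1 was highest per length in every library, at 236 to 293 RPKM, and Trbv29 came next at 110 to 161 RPKM. Trbc2 lay between 85.2 and 119 RPKM and Trbv1 between 51.8 and 114 RPKM, and these 2 ranges overlapped. Trbv13-1 followed at 29.1 to 48.1 RPKM, Trbv13-2 at 14.1 to 30.8 RPKM, Trbv5 at 2.86 to 17.0 RPKM and Trbv13-3 at 6.01 to 13.9 RPKM. On the same scale Trac lay between 193 and 278 RPKM and Trav11 between 62.9 and 117 RPKM, so the invariant alpha segment was at a level close to that of Trbv1 and below that of Trbv29 in median (95.4 RPKM for Trav11, 94.1 for Trbv1 and 132 for Trbv29).

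**Figure D4:**
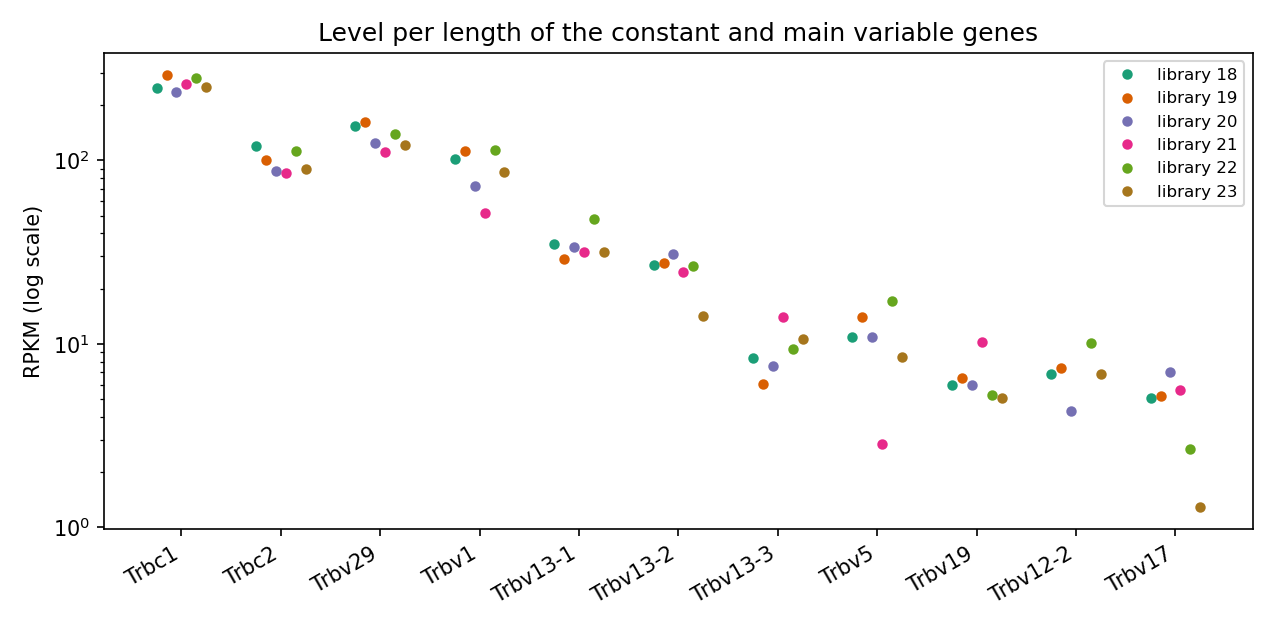
Deposited RPKM (y axis, log scale) of both constant genes and the 9 leading Trbv segments (x axis), 1 point per library. Trbc1 lies between 236 and 293 RPKM and Trbv29 between 110 and 161 RPKM; Trbv12-2 has no point in library 21, where it is listed at 0.

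To ask whether a member's level varied over the libraries beyond counting error, its counts were set against the TMM-scaled library sizes in a chi-square test. Genes needed 200 reads or more over the 6 libraries, and p-values were adjusted by Benjamini-Hochberg over all 9042 genes tested. The test says nothing about genotype. It called 71.6% of all genes tested at an adjusted p under 0.05, and 7 of the 8 members that could be tested; the other 45 members had fewer than 200 reads. With most genes called, the count of called members is not a result about these segments.

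The called members were Trbc2 (adjusted p = 2.24e-08), Trbv1 (1.21e-06), Trbv13-1 (2.82e-05), Trbc1 (0.000107), Trbv13-2 (0.00521), Trbv29 (0.0239) and Trbv5 (0.0344), and Trbv19 was not called (0.337). The highest library's CPM over the lowest was 1.15 for Trbc1, 1.27 for Trbv29, 1.29 for Trbc2, 1.70 for Trbv13-1, 1.95 for Trbv1, 2.18 for Trbv19, 2.40 for Trbv13-2 and 5.28 for Trbv5. The median of these ratios was 1.82, against 1.58 over all genes tested. Read count was not matched between members and all genes, so these medians do not show that the members varied more. Without library 21 the ratio was 1.86 for Trbv5, which rests on 2 reads there, 1.33 for Trbv1 and 1.34 for Trbv19. It was then 1.12 for Trbc1, 1.20 for Trbv29, 1.27 for Trbc2, 1.70 for Trbv13-1 and 2.40 for Trbv13-2. The median over all genes was not taken without library 21.

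Single libraries decided 5 of the 7 calls. Without library 18 the adjusted p of Trbc1 was 0.545, and without library 19 that of Trbv13-1 was 0.0552. Trbv13-2 was not called without library 20 (0.183) or library 23 (0.0675). Trbv29 was not called without library 22 (0.0626) or library 23 (0.0510), nor Trbv5 without library 21 (0.112) or library 22 (0.156). Trbv1 and Trbc2 kept their calls whichever library was left out. Their highest adjusted p was 0.000683 for Trbv1, without library 20, and 0.0354 for Trbc2, without library 18.

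The table also gives the fraction of each gene's reads outside its exons. Over the Trbv segments with exon reads, intron reads made up between 11.4% of gene reads in library 18 and 15.5% in library 21, and over the Trbc genes between 17.8% in library 23 and 22.9% in library 18. The median of the intron shares of all genes tested, each gene counted alike, was 36.4% to 40.2%. This is an unlike measure, since the class values pool reads over genes, and intron length was not taken into account. Among the leading segments the intron share was 8.61% to 16.9% for Trbv29, 6.27% to 14.8% for Trbv1, 6.32% to 15.4% for Trbv13-1, 11.1% to 28.3% for Trbv13-2 and 10.0% to 40.7% for Trbv13-3. Trbv12-2 and Trbv2 in library 21 had gene reads but no exon read, so that 100% of their reads lay outside exons. The same held for Trbv10 in library 21 and Trbv18 in library 20. These pseudogenes have an exon length of 0, so no other value was possible for them.

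Of the 12 listed genes of receptor assembly and signalling, 8 had enough reads to be tested and 7 were called, against the same background of 71.6%. Called were the CD3 chains Cd3d, Cd3e, Cd3g and Cd247, which carry the receptor's signal, the alpha constant gene Trac, the kinase Zap70 and Cd1d1, which presents lipids to iNKT cells; the kinase Lck was not called (adjusted p = 0.140). The recombination genes Rag1 and Rag2, Dntt, which adds bases at the joints, and Ptcra, the partner of the beta chain in developing thymocytes, had 6, 4, 5 and 12 reads over all 6 libraries.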

How the data were processed

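Per the labels, RNA of the sorted T cells was prepared by NucleoSpin RNA XS Micro and turned into libraries by QIAseq UPXome. The submitters' processing notes name GRCm38 and mm10; no aligner, counter or annotation release is given in the sources used here. All 53 members matched GENCODE M21 by identifier and coordinates.

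The deposited table gives whole exon read counts per gene and library, per the file headers, not normalized. It also gives the deposited fraction of exon reads that are unique, the deposited ratio of intron to gene reads, and RPKM values as the authors scaled them. 10 further columns of values per library were not used.

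Shares were taken within each class. CPM used TMM factors from edgeR 4.0.16 under R 4.3.3; intervals used scipy 1.17.1 and pairwise alignments Biopython 1.88. The chi-square test was tested on simulated counts that held only counting error and set changes in single libraries. That simulation does not check the test against other variation between libraries. Alternatives were unique reads, reads per base, intron reads included, near-identical segments summed, other normalizations and filters, and each library left out.

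Segments with a median share of at least 1% of their class were named, and those with no read were listed. The members and lists were chosen with earlier results of these data known. The planned comparison of Gpx4 cKO with WT by edgeR's quasi-likelihood test was not run, since no library could be matched to a label. Intervals cover counting error only, and differences between libraries may be technical. The symbols Trgc1, Trgc2, Trgc4 and Itgam of the marker lists were not matched. Some marker genes of the lists are not reported here.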

Additional observations from a re-analysis of the deposited data

Results flagged for a closer look

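Over all 6 libraries, as none has a genotype, 39 quantities were examined for a library that lies far from the other 5, and 5 stood out. Chance does so in about 1 in 20 only where the libraries are equally precise. Library 21, the shallowest, is less precise, and some quantities rest on the same counts, so 5 cannot be set against that rate. The Trbv29 level of library 22, 99.9 CPM, lay above libraries 21 (89.3 CPM) and 23 (94.4 CPM) and below libraries 18, 19 and 20. Its Trbv29 share, 33.5%, was the lowest and stood out. The other 4 values are from library 21, which held 196 Trbv reads: a Trbv19 share of 5.61%, a Trbv19 level of 13.3 CPM, 33.3% of Trbv5 gene reads in introns, on 2 exon reads, and 8.67% of Trbv reads on the 14 segments with a median under 1%.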

How the results depend on the processing

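No paired analysis was possible because no library could be matched to a label, so the replicate block and the DESeq2 fit of Gpx4 cKO against WT were not run. Counted per base of exon, the median share was 40.2% for Trbv29, 28.0% for Trbv1, 20.3% for the 3 Trbv13 segments, 73.3% for Trbc1 and 26.7% for Trbc2. With intron reads included it was 29.8% for Trbv1, 19.9% for the Trbv13 segments, 73.2% for Trbc1 and 26.8% for Trbc2. The Trbv13 median was 17.7% over libraries with at least 200 Trbv reads and between 17.7% and 20.3% when each library was left out. Unique reads alone gave 37.9% for Trbv29, 31.0% for Trbv1, 19.2% for the Trbv13 segments and 75.2% for Trbc1. 7 of 8 members were called with DESeq2 size factors, with library totals and with an expected count of 5 in every library, where 71.5%, 73.5% and 71.6% of all genes tested were called. When 1 library was left out, 5 or 6 of 7 or 8 members tested were called, against 61% to 68.4% of all genes. Depth limits library 21 most, where a count of 0 allows 3 reads, or up to 1.53% of Trbv reads.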
